A study of Mus musculus with 32 samples.

Results

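The RNA exosome is the main machine that degrades RNA from its 3′ end in animal cells. Its core subunits are encoded by 10 genes, Exosc1 to Exosc10, which were chosen by symbol and were all listed among the 55289 named genes of each of 5 deposited tables, 1 per organ. The assay, degradome sequencing, captures poly(A) RNA that has lost its cap and counts short tags from its 5′ end. A value for Exosc5 therefore counts decapped or cleaved Exosc5 transcripts, not intact mRNA or protein. In whole tissue, fewer cells of a type and less RNA per cell cannot be told apart.

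The study compared Ftsj1-deficient mice (Ftsj1_DF) with wild-type (WT) mice, all male, untreated and 4 months old. Ftsj1 encodes an enzyme that methylates the ribose of tRNA. Heart, kidney, brain and liver came from the same 6 mice, giving 3 libraries per genotype and organ, and spleen came from 8 other mice, giving 4 per genotype. The mice of both sets were brothers within families that held both genotypes. Neither the background strain nor the nature of the Ftsj1 allele is given in the labels, and whole tissue was used.

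The exosome is a barrel with a cap. Exosc4 to Exosc9 form a ring of proteins related to the bacterial nuclease RNase PH, and in mammals this ring threads RNA without cutting it. Exosc1, Exosc2 and Exosc3 sit on the ring as an RNA-binding cap. Cutting is left to attached nucleases, Exosc10 in the nucleus and Dis3 or Dis3l at the far end of the barrel. The complex matures ribosomal and small nucleolar RNA, removes faulty nuclear transcripts and, with the SKI helicase complex, degrades mRNA in the cytoplasm.

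Each table holds the mean normalized count over all libraries of an organ, a log2 fold change and its standard error, so no value per library can be shown and the depth of each library is unknown. The means summed to between 48536401 and 73405489 per table. Hepatocyte markers had a median mean count of 74665 in the table named for brain against 426 in that named for liver, while neuron markers had 122 against 15887. These are called the brain-named and the liver-named table here. Cardiomyocyte, proximal tubule and B cell markers were highest in the tables of heart, kidney and spleen. Pancreatic acinar markers made up 108492 of every 1000000 tags in the spleen table. Ftsj1 was negative in all 5 of the authors' deposited tables, from -3.38 to -1.56 on the log2 scale, and this sets the sign: a positive value means more tags in deficient mice. At the 5% false discovery rate used throughout, Ftsj1 passed in the spleen and in the brain-named and liver-named tables (DESeq2 adjusted p = 0.0261, 1.75e-09 and 0.000176) but not in heart or kidney (DESeq2 adjusted p = 0.594 and 0.202).

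The genotype comparison asked whether uncapped ends of exosome transcripts differ when Ftsj1 is missing. A single subunit in a single organ passed: Exosc5, a ring subunit also known as Rrp46, fell in the heart. Of 43 tested pairs of subunit and table, 25 were positive and 18 negative, 1 passed, and 2 had an unadjusted p under 0.05 in the authors' DESeq2 fit. Of all genes, between 0.203% and 2.07% passed in a table and between 5.97% and 11.9% had an unadjusted p under 0.05, so the subunits' count at that p was not above the share of all genes. Exosc6 had no test in any table, and Exosc2 had no adjusted p in the kidney and brain-named tables.

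Heart tags of Exosc5 had a mean of 220 in the authors' deposited table. With its fold change this corresponds to 316 in wild-type and 124 in deficient mice, taking both genotypes to weigh equally in the mean. The log2 fold change in the authors' deposited table was -1.35 ± 0.38 (SE, n = 3 libraries per genotype, DESeq2 adjusted p = 0.0387, 95% Wald interval -2.09 to -0.60). This is a drop of 2.54-fold, and Exosc5 ranked 210 of 19847 genes by p. Of all genes tested in heart, 1.19% passed, and 0.771% passed as lower in deficient mice, against 1 of 9 tested subunits. How many of the 3 deficient hearts were low cannot be read from the table. The call was lost when p-values were adjusted over every gene with a p (DESeq2 p, adjusted p = 0.0641) and when the statistic was divided by its robust spread (adjusted p = 0.217).

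Exosc5 passed in no other organ. Values of Exosc5 in the authors' deposited tables were 0.41 ± 0.28 in kidney, 0.51 ± 0.49 in spleen, -0.39 ± 0.38 in the brain-named and -0.57 ± 0.43 in the liver-named table, with a DESeq2 adjusted p of 0.632 or more. Implied kidney levels were 816 in wild-type and 1085 in deficient mice, the opposite order from the heart. The heart value lay below the kidney value by -1.76 ± 0.47 on the log2 scale (95% Wald interval -2.68 to -0.83, adjusted p = 0.0382 over 17874 genes by a z test on the DESeq2 values). The z test takes the tables as independent, although heart and kidney came from the same mice, and 0.638% of genes passed it in this pair. This call was lost when the difference was adjusted over all 10 pairs of tables together (adjusted p = 0.057) or rescaled by its robust spread (adjusted p = 0.125). The differences of heart from spleen, -1.86 ± 0.62, and from the liver-named table, -0.77 ± 0.57, did not pass (DESeq2 values, z test, adjusted p = 0.3 and 0.853). Nor did that of the brain-named table from heart, 0.95 ± 0.54 (same z test on DESeq2 values, adjusted p = 0.557), so the drop is not shown to differ from these 3 tables.

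**Figure D1:**
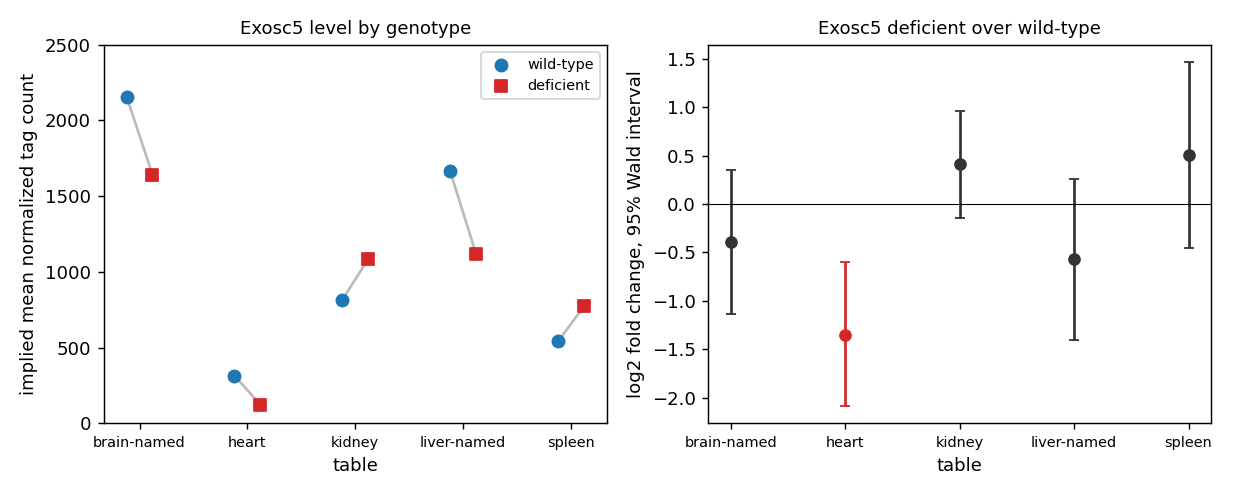
The left panel plots the mean normalized tag count of Exosc5 in each genotype and table, as implied by the deposited mean and fold change, and the right panel plots the log2 fold change with its 95% Wald interval. The heart has the lowest levels, 316 and 124, and its interval alone lies wholly below 0.

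Over the 10 pairs of tables, 83 differences could be tested for subunits and 1 passed. The share of all genes that passed was 0.452% for brain-named against heart, 1.3% for brain-named against kidney, 0% for brain-named against liver-named and 0.0534% for brain-named against spleen. It was 0.165% for heart against liver-named, 0.117% for heart against spleen, 0.791% for kidney against liver-named, 0.411% for kidney against spleen and 0.0799% for liver-named against spleen.

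Markers of several other cell types had the sign of Exosc5 in the heart table. Signs and medians are of tested markers, while implied sums run over every marker of a list with a fold change, tested or not. All 6 tested hepatocyte markers were negative, with a median log2 fold change of -0.76 and implied sums of 38497 tags in wild-type and 21052 in deficient mice. All 7 neuron markers were negative, with a median of -0.22 and sums of 1654 and 1043. The 6 tested pancreatic acinar markers were negative as well, with a median of -0.48 and sums of 8521 and 6086, and Cela2a was listed at 0. Cardiomyocyte markers were split, 3 positive and 3 negative, with a median of -0.07 and sums of 2281053 and 2224308. In these 4 lists no marker passed. Proximal tubule markers in heart were 2 positive and 5 negative, with a median of -0.32 and 0 that passed. Adrenal markers there were 1 positive and 2 negative of 3 tested, with a median of -0.01 and 0 that passed. Of 5 tested B cell markers, 3 were positive and 2 negative, and 1 passed, whose sign is not given here. The median of that list was 0.02, with sums of 20400 and 15569. Proliferating cell markers had the opposite sign, positive in 5 of 5 tested, with sums of 683 and 974. Ccna2, a cyclin gene that is not in that list, was at -3.27 ± 1.08 in the authors' deposited table of heart and did not pass (DESeq2 adjusted p = 0.117). In the kidney table, where Exosc5 was at 0.41, all 7 hepatocyte markers were negative as well, with a median of -0.50. So were 6 of 7 neuron markers (median -0.45), 4 of 6 tested acinar markers (-0.10) and all 5 tested cardiomyocyte markers (-0.74). B cell markers were negative in 4 of 6 tested (-0.38). Proximal tubule markers, those of the kidney itself, were 5 positive and 2 negative, with a median of 0.10 and sums of 332975 and 356287. No marker of these lists passed in kidney. All 3 tested adrenal markers were negative there, with a median of -2.76, sums of 5462 and 421 and 1 that passed. Of 5 tested proliferating cell markers in kidney, 2 were positive and 3 negative, and 2 passed, whose signs are not given here. The median of that list was -0.38, with sums of 696 and 829. The part of these markers in the Exosc5 results was not tested.

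Promoter sequences are shown for Exosc5, the subunit that passed, and for Exosc1 and Exosc2, the other subunits with the letters CCAAT in this window. Each is the 250 bases before the start in RefSeq on build GRCm38.p6, an older build than that of the tables, at chr7:25658903-25659152 (plus strand), chr19:41933315-41933564 (minus strand) and chr2:31670465-31670714 (plus strand). Capitals mark CCAAT on either strand (the CCAAT box) and CACGTG (an E-box).
Exosc5: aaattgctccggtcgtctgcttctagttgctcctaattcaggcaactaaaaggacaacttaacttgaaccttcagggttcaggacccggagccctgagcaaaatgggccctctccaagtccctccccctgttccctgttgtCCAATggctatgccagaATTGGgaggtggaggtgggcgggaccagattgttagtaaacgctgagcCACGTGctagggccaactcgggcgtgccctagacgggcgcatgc
Exosc1: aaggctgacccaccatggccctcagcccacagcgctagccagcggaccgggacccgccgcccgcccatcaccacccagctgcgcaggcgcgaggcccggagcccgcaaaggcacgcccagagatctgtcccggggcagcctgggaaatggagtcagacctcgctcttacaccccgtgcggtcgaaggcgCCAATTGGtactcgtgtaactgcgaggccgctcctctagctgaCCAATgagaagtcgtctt
Exosc2: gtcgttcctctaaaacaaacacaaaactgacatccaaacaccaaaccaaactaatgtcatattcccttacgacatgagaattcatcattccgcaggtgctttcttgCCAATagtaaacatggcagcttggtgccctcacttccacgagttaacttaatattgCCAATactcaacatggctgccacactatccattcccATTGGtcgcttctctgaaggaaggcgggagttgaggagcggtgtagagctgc
Exosc5 held CCAAT in both orientations and CACGTG from 44 to 39 bases before its start. In Exosc1 a pair of CCAAT matches overlaps on opposite strands. The table held 9 windows for 8 subunits, with 2 for Exosc10 and none for Exosc4 and Exosc9. CCAAT stood in 3 of these 9 windows against 33.8% of all 32851 windows of the same length, and CACGTG in 1 of 9 against 6.02%. GGGCGG, the GC box, stood in 5 of 9 against 32.7%, CCGGAAG, an ETS core, in 1 of 9, for Exosc10, against 6.91%, the NRF1 core in 2 of 9, for Exosc1 and Exosc7, against 3.74%, and TATAAA in 0 of 9 against 12.4%. Both strands were searched, and a match is a description of letters.

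Among the cap genes, Exosc1 in the heart was the most precise value of all subunits. It was 0.03 ± 0.23 in the authors' deposited table, with a 95% Wald interval of -0.43 to 0.49, and implied levels were 1545 in wild-type and 1578 in deficient mice. Exosc1 was at 0.77 ± 0.38 in the brain-named one of the authors' deposited tables (DESeq2 p = 0.0437, adjusted p = 0.438), with implied levels of 781 in wild-type and 1334 in deficient mice. In that table all 5 tested pancreatic acinar markers were positive, with a median of 4.04, implied sums of 21078 in wild-type and 257310 in deficient mice and 1 that passed. Of 7 hepatocyte markers 6 were positive, with a median of 0.41, sums of 12981142 and 22018208 and 0 that passed by DESeq2, and all 4 tested adrenal markers were negative, with a median of -0.63, sums of 837 and 304 and 1 that passed. These sums again include markers that were not tested. The part of these markers in the Exosc1 value was not tested. In kidney Exosc1 was at -0.82 ± 0.59, in spleen at 0.33 ± 0.64 and in the liver-named table at 0.51 ± 0.41, per the authors' deposited tables. The brain-named value lay above the kidney value by 1.60 ± 0.70, which did not pass (z test on DESeq2 values, adjusted p = 0.288).

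Exosc3, the cap subunit whose human gene is mutated in a form of pontocerebellar hypoplasia, did not pass in any table. Its values in the authors' deposited tables of heart, kidney and spleen were 0.36 ± 0.37, -0.26 ± 0.38 and 0.70 ± 0.42, and the brain-named and liver-named ones gave 0.58 ± 0.43 and -0.03 ± 0.41. Exosc2, the third cap subunit, had the largest fold change of any subunit, -3.52 ± 1.75 in the authors' deposited table of kidney, but no p there. It rests on a mean of 23.7 tags, implied as 43.5 in wild-type and 3.79 in deficient mice. Its other values ran from -1.48 ± 1.88 in heart to 0.17 ± 1.12 in the brain-named one of the authors' deposited tables.

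Of the other ring genes, Exosc7 had the narrowest span among subunits, from -0.19 ± 0.39 in kidney to 0.22 ± 0.49 in the brain-named one of the authors' deposited tables. Exosc4 was at 0.44 ± 0.32 in heart, 0.00 ± 0.31 in kidney and 0.28 ± 0.63 in spleen, and at 0.27 ± 0.37 and 0.60 ± 0.68 in the brain-named and liver-named ones of the authors' deposited tables. Exosc4 overlaps Oplah in RefSeq, and whether counting used strand is not given in the sources used here, so their tags may not be separable. In kidney, Oplah was at 0.91 ± 0.34 in the authors' deposited table (DESeq2 adjusted p = 0.176) beside implied Exosc4 levels of 4937 in wild-type and 4947 in deficient mice.

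Exosc9 had means of 10.2 to 66.2 tags, and Exosc8 had means of 22.6 to 69.8 in heart, kidney and the brain-named table but 259 in spleen and 338 in the liver-named table. Exosc8 in heart was at 1.25 ± 0.68 in the authors' deposited table (DESeq2 adjusted p = 0.519), with implied levels of 13.3 in wild-type and 31.8 in deficient mice. Elsewhere Exosc8 ran from -0.48 ± 0.56 in the brain-named to 0.17 ± 0.52 in the liver-named one of the authors' deposited tables. Exosc9 ran from -1.16 ± 0.93 in heart to 0.86 ± 0.82 in the brain-named one of the authors' deposited tables. Exosc9 overlaps Ccna2, the cyclin gene given above. Both were negative in heart and both positive in the brain-named table. Their signs differed in the authors' deposited tables of kidney (Exosc9 -0.13 ± 1.46, Ccna2 2.38 ± 1.34) and spleen (-0.15 ± 0.70 and 0.21 ± 0.85). The liver-named one also gave different signs, 0.47 ± 0.54 for Exosc9 and -0.42 ± 0.48 for Ccna2. Exosc8 overlaps Supt20 and Exosc2 overlaps Gm13427, so the same limit on strand holds for them.

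The nuclear exonuclease Exosc10 was at 0.21 ± 0.41 in heart, 0.38 ± 0.38 in kidney and -0.53 ± 0.53 in spleen, and at -0.04 ± 0.44 and -0.12 ± 0.47 in the brain-named and liver-named ones of the authors' deposited tables. All 5 intervals include 0. Spleen levels were implied as 3344 in wild-type and 2311 in deficient mice.

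**Figure D2:**
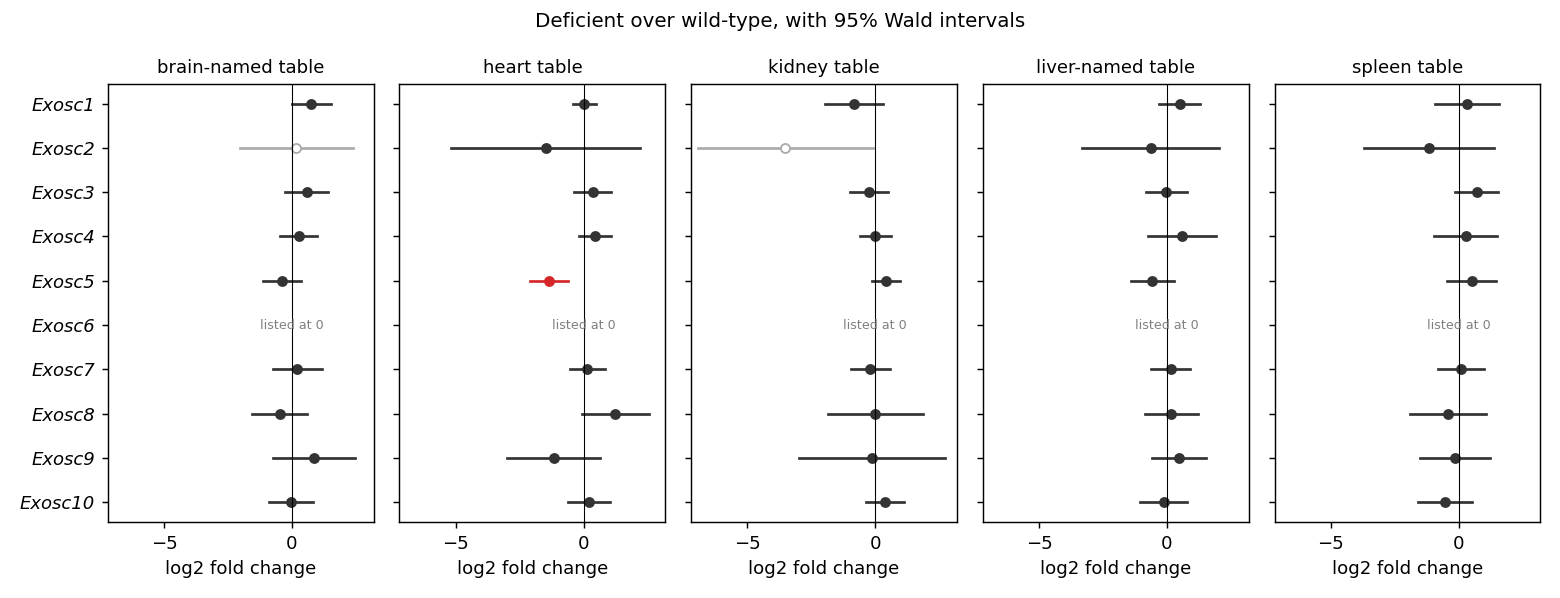
Log2 fold changes of the subunit genes, deficient over wild-type, with 95% Wald intervals, 1 panel per table. The red point is Exosc5 in the heart, the value that passed, open grey points are Exosc2 values without an adjusted p, and Exosc6 was listed at 0.

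Outside the heart, 0 subunits passed in the authors' DESeq2 fit. This was 0 of 8 in kidney, where 2.07% of genes passed, 0 of 9 in spleen (0.217%), 0 of 8 in the brain-named table (0.414%) and 0 of 9 in the liver-named table (0.203%). At an unadjusted p under 0.05 there were 0 subunits in kidney, spleen and the liver-named table, against 11.9%, 5.97% and 10.4% of all genes, and 1 subunit was found against 10.8% in the brain-named table. Median log2 fold changes of the tested subunits were 0.15 in heart, -0.07 in kidney, 0.10 in spleen, 0.25 in the brain-named and 0.15 in the liver-named table. Over all tested genes these were 0.01, -0.01, -0.01, 0.04 and -0.05. The kidney mean weighted by precision, 0.05, has the opposite sign from its median. For single subunits, the median standard error ran from 0.38 in heart to 0.63 in spleen. No error of the list medians was computed.

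The change needed to pass depended on precision. At the threshold, a subunit of median precision needed a log2 fold change of 1.31 in heart, 1.26 in kidney, 2.44 in spleen, 1.62 in the brain-named and 1.82 in the liver-named table. The most precise subunit needed 0.81 in heart, 0.92 in kidney, 1.65 in spleen, 1.38 in the brain-named and 1.54 in the liver-named table. For 10 of the 43 tested values the 95% Wald interval lay within a 2-fold change in either direction, and for the rest a 2-fold change was not excluded by the interval.

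Tag levels were also set side by side across organs. The tables were normalized separately and hold no spread over libraries, so neighbours in these orders cannot be separated. Levels are given as tags per 1000000 of the sum of each table, and are not compared between genes because transcript lengths were not used here. Exosc5 was lowest in heart, at 4.37, followed by spleen at 13.5, kidney at 19.6, the liver-named table at 20.4 and the brain-named table at 25.9, a range of 5.93-fold. Exosc4 had the opposite extremes, with 167 in heart and 36.7 in the brain-named table. Its levels in kidney, spleen and the liver-named table were 102, 83.8 and 113.

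The cap genes differed in where they were high. Exosc1 was highest in spleen, at 59.9, and lowest in the brain-named table, at 14.4, with 40.6 in kidney, 32.9 in the liver-named table and 31.0 in heart. Exosc3 was highest in the brain-named table, at 68.0, and lowest in heart, at 20.1, with 65.2 in kidney, 42.7 in the liver-named table and 41.9 in spleen. Exosc2 stayed under 0.5 in every table, from 0.180 in the brain-named to 0.487 in kidney.

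Exosc8 had the widest range, 11.9-fold, from 0.447 in heart and 0.583 in kidney through 0.951 in the brain-named table to 4.96 in the liver-named table and 5.32 in spleen. Exosc9 ranged from 0.209 in kidney to 0.972 in the liver-named table. Exosc7 ranged from 25.9 in heart to 69.1 in the liver-named table, with 36.4 in spleen, 57.7 in kidney and 58.8 in the brain-named table. Exosc10 was at 35.8 in heart, 53.4 in the brain-named table, 58.0 in spleen, 105 in kidney and 111 in the liver-named table. Exosc6 was listed at 0 in all 5 tables, as were 1456 of 21218 protein-coding genes matched by symbol (6.86%). Among these was Actc1, the cardiac actin gene, also in the heart table, so a listed 0 cannot be read as absence.

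**Figure D3:**
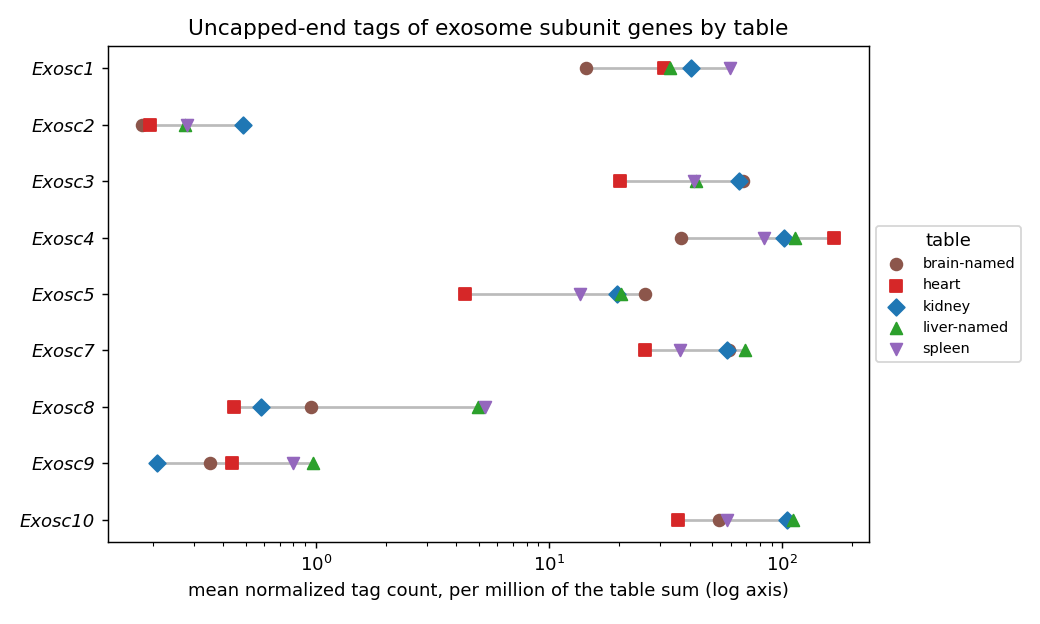
Each row is a subunit gene and each point its mean normalized tag count in 1 table, per 1000000 of the sum of that table, on a log axis; grey lines join the lowest and highest table, and Exosc6, listed at 0, is not drawn. Exosc8 spans the widest range, 11.9-fold, and heart is lowest for Exosc3, Exosc5, Exosc7, Exosc8 and Exosc10 but highest for Exosc4.

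Over 14738 genes with a mean of at least 20 in all 5 tables, the highest table exceeded the lowest by a median of 6.64-fold. Of the 7 subunits in that set Exosc8 lay above this value, and the others ran from 2.66-fold for Exosc7 to 5.93-fold for Exosc5. With tables scaled by median ratios, the background median was 5.19-fold, Exosc5 reached 7.61-fold and Exosc10 fell to 1.91-fold. That scaling also changed which table was highest for Exosc7, Exosc9 and Exosc10 and which was lowest for Exosc1, Exosc2 and Exosc8. Summed over subunits, levels were 285 in heart, 391 in kidney, 300 in spleen, 259 in the brain-named and 395 in the liver-named table. The brain-named table was lowest by this sum and highest, at 437, under median ratios, and hepatocyte markers took 238397 of every 1000000 of its tags.

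As centred log2 levels, the mean profile of the 7 subunits was -0.78 in heart, 0.17 in kidney, 0.28 in spleen, -0.22 in the brain-named and 0.56 in the liver-named table. Exosc10 and Exosc7 lay nearest to it, at root mean square distances of 0.32 and 0.39, and Exosc4 and Exosc8 farthest, at 0.91 and 1.20. These 7 genes shaped the profile, which draws it towards them, so their short distances are compared only among themselves. Exosc8 nevertheless lay beyond the median distance of all genes, 0.93, and Exosc4 lay near it. The mean profile therefore does not describe every subunit. The 5 other genes nearest to this profile were Cwc25, Rnf169, Fbxl20, Gm5120 and Adamts20, at distances of 0.10 to 0.11. The likeness is over 5 tables and is a description.

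Exosome cofactors did not pass in any table. The list of 20 genes held the nucleases Dis3 and Dis3l, nuclear adaptors such as the helicase Mtrex, and the cytoplasmic SKI complex. Of 97 tested values 0 passed in the authors' DESeq2 fit, 8 had an unadjusted p under 0.05, and 56 were positive. Over all genes, 0.203% to 2.07% passed and 5.97% to 11.9% had such a p, depending on the table. Dis3, the nuclear catalytic subunit, was at -0.54 ± 0.45 in heart, 0.93 ± 0.56 in kidney and 0.52 ± 0.64 in spleen, and at 0.12 ± 0.57 and 0.49 ± 0.50 in the brain-named and liver-named ones of the authors' deposited tables. Dis3l, its cytoplasmic relative, was positive in all 5 of the authors' deposited tables, from 0.03 ± 0.36 in kidney to 0.61 ± 0.38 in the liver-named one. Its heart mean was 1758 tags.

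The share of cofactors with such a p was 5% in kidney, 10% in spleen, 0% in the brain-named and 5.26% in the liver-named table. Of all tested genes it was 11.9%, 5.97%, 10.8% and 10.4% there. In heart, 4 of 19 tested cofactors had an unadjusted p under 0.05 by DESeq2, or 21.1%, against 10.6% of all tested genes. These 4 differed in sign. Mphosph6, which ties Mtrex to the nuclear exosome, was at -1.49 ± 0.51 in the authors' deposited table (DESeq2 adjusted p = 0.148), with implied levels of 112 in wild-type and 40 in deficient mice. Skiv2l, the SKI helicase, was at -0.79 ± 0.31 in the authors' deposited table of heart (DESeq2 adjusted p = 0.238), with implied levels of 1138 in wild-type and 658 in deficient mice. The other two, Nvl and Zc3h18, were at 0.92 ± 0.38 and 0.82 ± 0.36 in the authors' deposited table (DESeq2 adjusted p = 0.284 and 0.342). Pabpn1, a nuclear poly(A)-binding protein, was at -5.14 ± 1.82 in the liver-named one of the authors' deposited tables, from a mean of 6.49 tags and with no adjusted p.

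Decapping and 5′ to 3′ decay genes, which serve the other end of the mRNA, gave 0 calls by DESeq2 among 94 tested values of 20 genes, and 7 had an unadjusted p under 0.05, beside the same 0.203% to 2.07% and 5.97% to 11.9% of all genes per table. Their median log2 fold changes were 0.26 in heart, 0.20 in kidney, 0.14 in spleen, 0.16 in the brain-named and 0.10 in the liver-named table. Those of the cofactors were 0.14, -0.05, -0.04, 0.14 and 0.05. No test between the lists was made.

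**Figure D4:**
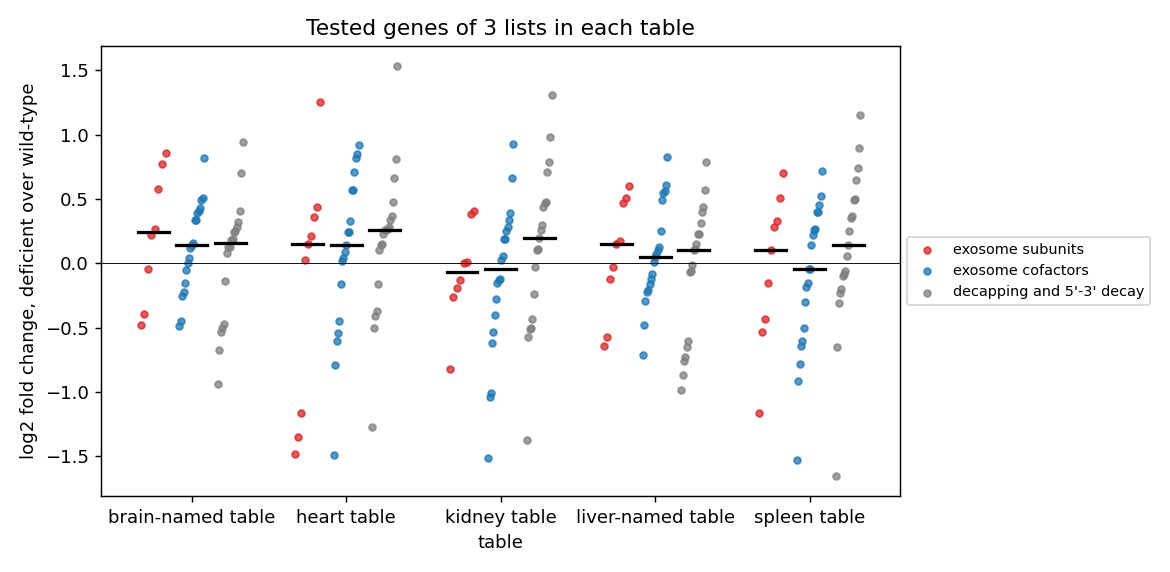
Each point is the log2 fold change, deficient over wild-type, of 1 tested gene in 1 table, for the exosome subunits, the cofactors and the decapping and 5′ to 3′ decay genes, and black bars are medians. Medians of the subunits lie between -0.07 and 0.25, and the lists overlap in every table.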

How the data were processed

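Per the labels, poly(A) RNA was isolated from 5 ug of total RNA, uncapped molecules received an adapter, and tags cut out with EcoP15I were sequenced. Titles gave the organ and genotype of all 32 libraries. The submitters' processing notes name GRCm39, featureCounts, Subread 2.0.3 and DESeq2. The version and the model of that test are not given in the sources used here. In the deposited tables the mean is a signal, a normalized count per gene over the libraries of an organ. Fold changes and standard errors were deposited on the log2 scale. The deposited test statistic is a Wald score. The authors supplied each p-value together with its adjusted form. A row with no gene name was left out of each table and held at most 5.32e-06% of its sum.

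Calls used the authors' adjusted p at a false discovery rate of 5%. No values per library were used, so nothing was refitted. The p-values reflect the spread between these mice, many of them brothers. Computed here were 95% Wald intervals, levels per genotype from the mean and fold change, and 2-sided z tests of differences between tables, Benjamini-Hochberg adjusted over all genes of a pair. A planned level per coding length was not made. Profiles used genes with a mean of at least 20 in all tables. Members and lists were chosen with earlier results of these data known. The text names every subunit, Ftsj1, Dis3, Dis3l, the 3 further cofactors of smallest p and the 5 nearest profiles. Oplah, Ccna2, Supt20, Gm13427, Actc1, Cela2a, Nvl and Zc3h18 were added after their values or positions were seen. Motifs were chosen after the tables were at hand. Calculations were tested on simulated data. Software was Python 3.11.15 with pandas 2.3.3, numpy 2.4.6, matplotlib 3.10.9 and scipy 1.17.1.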

Additional observations from a re-analysis of the deposited data

Results flagged for a closer look

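The genotype effect on Exosc5 was set against itself in heart and kidney: its log2 fold change in heart minus that in kidney was -1.76 ± 0.47 (z test on the DESeq2 values of both tables, adjusted p = 0.0382). The call was lost when the difference was rescaled by its robust spread (z test on DESeq2 values, adjusted p = 0.125) and when it was adjusted over all 10 pairs of tables (adjusted p = 0.057). Both organs came from the same mice, which the test does not use.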

How the results depend on the processing

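None of the settings for calls refits a fold change, so Exosc5 in heart stayed at -1.35 by construction. Exosc5 in heart gave 0 calls at a false discovery rate of 1%, with p-values adjusted over all genes that have one and with the rescaled statistic. It gave 1 call at 10% and after a filter at a mean of 20 (DESeq2 p, adjusted p = 0.0348). For the other 42 tested subunit values, 206 of 206 alternatives left the call as it was, and cofactors had 0 calls under each alternative. A rate of 1% could not add a call to either list. Nor could 10%, as the smallest DESeq2 adjusted p was 0.438 among the 42 and 0.148 among cofactors. Only settings that adjusted p anew could have changed these calls. The heart minus kidney difference of Exosc5, likewise fixed at -1.76, gave 1 call at 10% and with that filter (z test on DESeq2 values, adjusted p = 0.0375). It gave 0 calls when rescaled or adjusted over all 10 pairs, both chosen after seeing the data. Without the 10 genes of highest mean, the summed level of the subunits per 1000000 became 362 in heart, 415 in kidney, 420 in spleen, 410 in the brain-named and 416 in the liver-named table. Median ratio scaling gave 376, 286, 325, 437 and 275. That scaling shifts all genes of a table alike, so profile distances and the 5 nearest genes could not change under it. No paired analysis was possible because the tables hold no values per library, and leaving out each replicate was not run for the same reason.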
